A study of Rattus norvegicus with 14 samples.

Results

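Fatty acid oxidation and uptake genes were followed in the rat soleus after tenotomy, the cutting of a muscle's tendon, which leaves the muscle unloaded. The members were 32 genes picked by symbol for their known roles, from the proteins that bring a fatty acid into the fibre to those that burn the last carbon pairs in the mitochondrion and use ketone bodies. All 32 had a probe set that passed the filter on dim signals, out of 11065 genes tested, so no member was lost to that filter. The soleus is a slow postural muscle of the lower leg, and whole muscles of male Sprague Dawley rats were hybridised to 14 Affymetrix arrays, 1 muscle per array.

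The 4 control arrays held left soleus muscles of rats 61 and 62 and of 2 further rats, with no tenotomy named for these muscles. The 6 short-term arrays held right muscles tenotomized for 1 week (rats 12 and 13), 2 weeks (rats 25 and 27), 3 weeks (rat 32) and 4 weeks (rat 42). The 4 long-term arrays held right muscles tenotomized for 6 weeks (rats 61 and 62), 16 weeks (1 rat) and 22 weeks (1 rat). Rats 61 and 62 therefore gave a control muscle and a 6-week muscle each. The sample group labels call the tenotomized groups short-term immobilized and long-term immobilized, while tenotomy is named in the sample titles. The short-term rats gave no control muscle, so cohort, leg side and tenotomy cannot be told apart in that comparison. All tenotomized muscles were right and all controls left, so leg side and tenotomy cannot be told apart in any comparison with control. Short-term and long-term muscles came from different rats, so cohort and time since tenotomy cannot be told apart between them. The labels give no age and no batch. Each muscle was ground whole, so fewer cells of a type and less RNA per cell cannot be told apart in any value below.

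A slow fibre runs largely on fatty acids. These enter through CD36 and the FATP transporters, are bound by FABP3 in the cytosol, are activated to acyl-CoA by ACSL1 and cross the inner mitochondrial membrane as carnitine esters. Inside, each turn of beta-oxidation takes the chain through a dehydrogenase, a hydratase, a second dehydrogenase and a thiolase, with extra isomerases and reductases for unsaturated chains, and the electrons pass through ETF and its dehydrogenase to the respiratory chain. PPAR alpha and the estrogen-related receptors are the textbook regulators of many of these genes.

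All 32 genes fell in short-term tenotomized muscle against control, where 39.6% of all genes tested were called lower, and 29 of the 32 showed no overlap between the 6 short-term and 4 control arrays, against 29.2% of all genes. The median member changed by -1.02 on the log2 scale, from -2.26 for Eci2 to -0.51 for Lpl. In long-term muscle the same 32 genes were all higher than in short-term muscle, where 42.4% of all genes were called higher, with a median difference of 0.98. Against control, 0 of the 32 differed in long-term muscle by limma, where 0% of all genes tested were called, and the median member stood at -0.04.

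These changes are log2 differences between group means, each given relative to the median of all genes tested in that comparison, which is therefore 0. The median itself shifted by -0.34 in short-term muscle against control, by 0.37 in long-term against short-term muscle and by 0.02 in long-term muscle against control, so ratios of the signals printed below are larger than the relative changes by that amount. The p-values belong to the change before the median gene was subtracted. A call is an adjusted p under 0.05 by limma, with Benjamini-Hochberg adjustment over all 11065 genes. Under 6 ways of scaling the arrays, 31 of the 32 members were lower in short-term muscle each time, against 16.8% of all genes. The exception was Acads, which missed the threshold under 4 of the scalings, with adjusted p between 0.076 and 0.209. Against short-term muscle 31 of the 32 were higher under all 6 scalings, again without Acads, against 15.4% of all genes, and 30 did not overlap, against 29.8% of all genes.

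**Figure D1:**
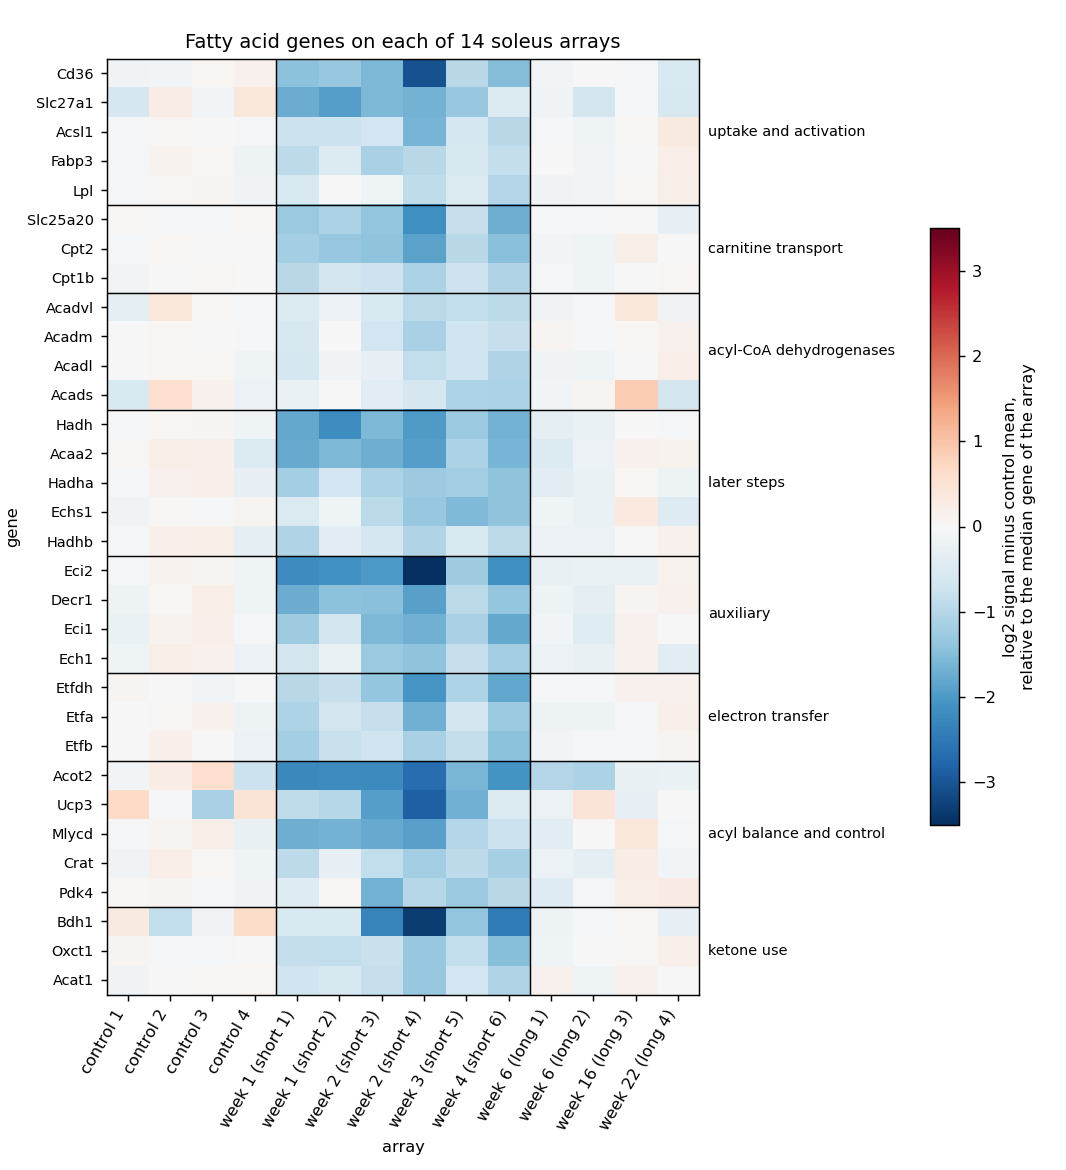
Log2 signal of each of the 32 genes (rows, grouped by role) on each of the 14 arrays (columns, by group and week), minus the gene's control mean and relative to the median gene of that array, as colour. The 6 short-term columns hold the low values, with the lowest member median, -1.52, on the second array of week 2, and the long-term columns of weeks 16 and 22 have member medians of 0.06 and 0.02.

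Uptake and activation comprised 5 genes, with a median change of -0.89 in short-term muscle. Cd36 encodes the main fatty acid translocase of the muscle membrane. Its signal was 3193, 2907, 3503 and 3599 in the controls, 309, 919 and 1454 at the lowest, the median and the highest of the short-term arrays, and 3098, 3169, 3190.3 and 2642 in the long-term arrays. Every short-term array read below every other array, and the lowest, the second array of week 2, lay apart from the rest. The relative change was -1.64 (SE 0.29, adjusted p = 5.43e-05) in short-term muscle and 1.48 (SE 0.29, adjusted p = 9.58e-05) in long-term against short-term muscle. Slc27a1 encodes FATP1, a transporter that also activates long chains. It read 469, 738, 636 and 869.9 in the controls, 139, 166 and 364 at the lowest, median and highest short-term array, and 607, 403, 650.2 and 519 in long-term muscle. The short-term arrays lay under all others, and the change was -1.44 (SE 0.25, adjusted p = 3.94e-05). Its return was less full than that of most members: 77.4% of the short-term difference was absent in long-term muscle, where the difference from control was -0.33 with a 95% interval of -0.90 to 0.24.

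The remaining uptake genes had smaller changes. Acsl1, the main long-chain acyl-CoA synthetase of muscle, changed by -0.89 and Fabp3, the cytosolic fatty acid carrier, by -0.81. Lpl, the lipase that frees fatty acids from circulating lipoproteins at the capillary wall, had the smallest change of the 32, -0.51 (SE 0.19, adjusted p = 0.00141), and 17.6% of all genes tested had a larger fall. Cd36 and Lpl are also made by adipocytes and other cells of muscle tissue. The summed signal of the 7 adipocyte markers on the array spanned 2674 to 4482 in the controls and 2305 to 5460 in short-term muscle. The 6 of them that passed the filter had a median change of 1.05, with 4 of the 6 above 0. Only Cfd was called higher, at 2.22, and Fabp4 and Lipe were called lower, at -0.30 and -0.23, neither under all 6 scalings. The summed signal of 8 endothelial markers spanned 2795 to 3726 in the controls and 2064 to 4033 in short-term muscle. Of these 8, 1 was called lower, where 39.6% of all genes were. No marker of either list was at 0, and their part in the result was not tested.

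The 3 genes of the carnitine shuttle had a median change of -1.36. Slc25a20 encodes the carnitine-acylcarnitine carrier of the inner membrane. Its signal was 1936, 1600.3, 1767 and 1796 in the controls, 314, 547 and 873 at the lowest, median and highest short-term array, and 1697, 1641, 1763 and 1666 in long-term muscle. Control and long-term arrays covered the same narrow range, and each short-term array lay well under it, with a change of -1.40 (SE 0.21, adjusted p = 1.49e-05). Cpt2, which turns the imported ester back into acyl-CoA, read 1882, 1817, 1907 and 1837 in controls, 399, 559.5 and 817 at the lowest, median and highest short-term array, and 1737, 1585, 2156 and 2109.7 in long-term muscle. Its short-term arrays again lay below all others, with a change of -1.36 (SE 0.17, adjusted p = 4.06e-06) and a difference of 1.35 between long-term and short-term muscle. Cpt1b, the muscle form of the outer-membrane enzyme that malonyl-CoA inhibits, changed by -0.86 (SE 0.14). Cpt1a, the liver form, is not a member and did not pass the test, at 0.23 (adjusted p = 0.726).

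The acyl-CoA dehydrogenases, which take the first step for chains of different length, had changes between -0.66 and -0.56 and a median of -0.62, the smallest of the 8 roles. Acadvl acts on very long chains. It read 1628, 2336, 2014 and 1825 in controls, 763, 963 and 1340.3 at the lowest, median and highest short-term array, and 1772, 1753, 2525 and 2065 in long-term muscle. Its highest short-term array was below its lowest control, and the change was -0.66 (SE 0.17, adjusted p = 0.000214). Acadm, the medium-chain enzyme, read 5479.7, 5101, 5422 and 4906 in controls, 1837, 2645 and 4153 at the lowest, median and highest short-term array, and 5559.9, 4752, 5508 and 6717 in long-term muscle. No short-term array reached the control or long-term range, and the change was -0.64 (SE 0.18, adjusted p = 0.000306). Acadl, for long chains, changed by -0.59. Acads, for short chains, changed by -0.56 (SE 0.27, adjusted p = 0.0105), its short-term and control arrays overlapped, and the 95% interval of its relative change, -1.12 to 0.01, crossed 0.

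The 5 genes of the later steps of the spiral had a median change of -1.13. Hadh encodes the mitochondrial dehydrogenase for shorter hydroxyacyl chains. It read 4928, 4734, 5286 and 4319 in controls, 846, 1143 and 1694 at the lowest, median and highest short-term array, and 3770.1, 3896, 4912 and 5338 in long-term muscle. The highest short-term signal was far below the lowest control, and the change was -1.74 (SE 0.17, adjusted p = 2.18e-06). Acaa2, the thiolase that cleaves the shortened chain, read 4327, 4284, 4569 and 2828 in controls, 803, 949 and 1570.3 at the lowest, median and highest short-term array, and 2854, 3202, 4428 and 4946 in long-term muscle. The control array of rat 61 was low for a control, near the 6-week arrays, yet still above all short-term arrays. The change was -1.61 (SE 0.20, adjusted p = 5.49e-06). Hadha and Hadhb, the subunits of the trifunctional protein that handles long chains, changed by -1.13 and -0.75, and Echs1, the short-chain hydratase, by -0.97. Whether these falls differ from those of the dehydrogenases was not tested.

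The auxiliary enzymes for unsaturated chains included the gene with the largest fall of the 32. Eci2 encodes an enoyl-CoA isomerase of mitochondria and peroxisomes. Its signal was 1415, 1408, 1519 and 1234 in controls, 72, 247 and 506 at the lowest, median and highest short-term array, and 1167, 1126, 1192 and 1739 in long-term muscle. All short-term arrays lay under all others, and the array of week 22 stood above the remaining long-term ones. The change was -2.26 (SE 0.35, adjusted p = 2.91e-05), the 17th largest fall among all genes tested, and the difference between long-term and short-term muscle was 2.12. Decr1, the dienoyl-CoA reductase, read 3212, 3378, 4127 and 3057 in controls, 715, 970.3 and 1534 at the lowest, median and highest short-term array, and 3033, 2577, 3715 and 4361 in long-term muscle. Its short-term arrays lay below every control and long-term array, with a change of -1.47 (SE 0.19, adjusted p = 7.13e-06). Eci1, the main mitochondrial enoyl-CoA isomerase, changed by -1.34 and Ech1, a dienoyl-CoA isomerase, by -0.93.

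The 3 electron transfer genes had a median change of -1.02. Etfdh, the enzyme that hands the electrons to ubiquinone, read 2149.6, 1769.7, 1823 and 1911 in controls, 358, 660.2 and 867 at the lowest, median and highest short-term array, and 1820.4, 1734, 2131 and 2423 in long-term muscle. Short-term arrays did not reach the others, and the change was -1.34 (SE 0.22, adjusted p = 2.81e-05). Etfa, a subunit of the electron transfer flavoprotein, read 5213, 4762, 5661 and 4322 in controls, 1196, 2012 and 2729 at the lowest, median and highest short-term array, and 4356, 4155, 4848 and 6438 in long-term muscle. Here too all short-term signals were the lowest, and the change was -1.02 (SE 0.20, adjusted p = 7.56e-05). Etfb, its partner subunit, changed by -1.004, close to Etfa.

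Genes of acyl balance and control included 5 members with a median of -1.46. Acot2, a mitochondrial thioesterase that frees fatty acids from acyl-CoA, read 1823, 2042, 2809 and 1086 in controls, 224, 312 and 525 at the lowest, median and highest short-term array, and 902, 813, 1541 and 1793 in long-term muscle. The short-term arrays lay far below the controls, the controls varied widely, and both 6-week arrays lay below every control. The change was -2.17 (SE 0.28, adjusted p = 9.08e-06) in short-term muscle, and the other probe sets of the gene, 2 in number, gave -2.61 and -2.99. In long-term muscle the difference from control was -0.65, with an interval of -1.29 to -0.004 and an adjusted p of 1, and 70.2% of the fall was absent, the lowest share among the members. By week it was -1.06 at week 6, -0.26 at week 16 and -0.24 at week 22.

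Ucp3, a mitochondrial carrier that follows fatty acid supply, read 628, 328, 170.2 and 504 in controls, 39.5, 118 and 196 at the lowest, median and highest short-term array, and 319, 470.1, 299 and 426 in long-term muscle. The lowest control was within the short-term range, and the change was -1.47 (SE 0.40, adjusted p = 0.00147). Pdk4 encodes the kinase that shuts pyruvate dehydrogenase when fat is burned. It read 4408, 4053, 3998 and 3639.7 in controls, 2365 and 3357 at week 1, 979 and 1566 at week 2, 1405 at week 3, 1564 at week 4, and 2918, 3687, 4726 and 5696 in long-term muscle. The week-1 arrays were the highest of the short-term group, and the change over all 6 was -0.87 (SE 0.27, adjusted p = 0.00134). Mlycd, which breaks down malonyl-CoA, the inhibitor of Cpt1b, changed by -1.46, and Crat, the short-chain carnitine acyltransferase, by -0.88.

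The 3 ketone genes fell, with a median of -1.01. Bdh1, which oxidises hydroxybutyrate, read 226, 88, 158 and 262 in controls, 13.1, 37.7 and 93.5 at the lowest, median and highest short-term array, and 149, 154, 181 and 160.0 in long-term muscle. Its week-1 arrays, at 93.4 and 93.5, overlapped the lowest control, and the change was -1.75 (SE 0.47, adjusted p = 0.00167). Its week-2 arrays read 13.1 and 25.4 and its week-4 array 23.9, near the filter signal of 22.0, so the size of this fall is uncertain. Oxct1, which activates acetoacetate for use in the muscle, read 5782, 4669, 5026 and 5057 in controls, 1396, 2257 and 2446 at the lowest, median and highest short-term array, and 4655, 4811, 5351 and 6639 in long-term muscle. The short-term arrays did not overlap the controls or the long-term arrays, and the change was -1.01 (SE 0.17, adjusted p = 1.67e-05). Acat1, the thiolase that ends ketone use, changed by -0.85.

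**Figure D2:**
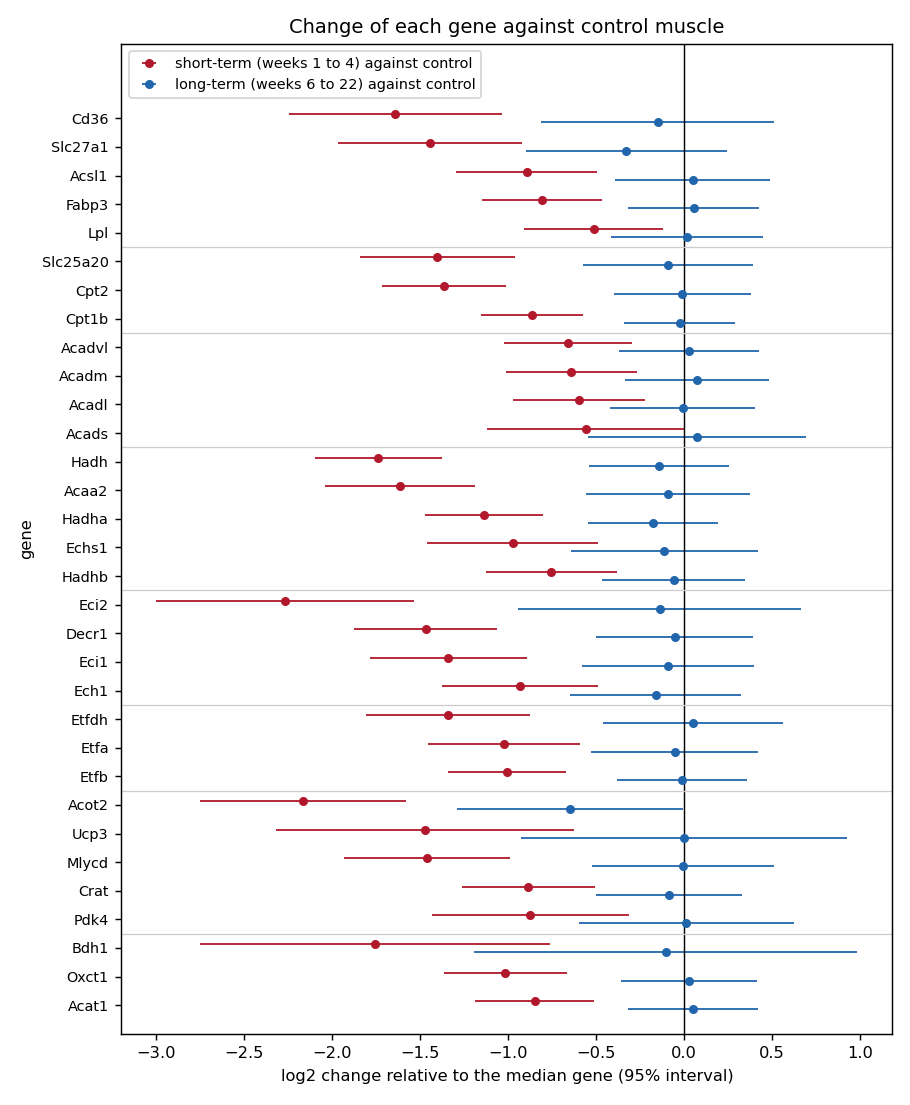
Relative log2 change of each of the 32 genes in short-term muscle against control and in long-term muscle against control, as points with 95% intervals, ordered by role. All short-term points lie between -2.26 and -0.51, and the long-term points lie between -0.65 for Acot2 and 0.08 for Acads.

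The size of the falls can be read against all genes. Of the 32 members, 14 were among the 2% of tested genes with the largest falls in short-term muscle and 19 among the 5%. Members with a higher control signal tended to have smaller falls, with a Spearman correlation of 0.573 and a Pearson correlation of 0.451. The part of signal level in the order of genes and roles was not tested. Of the 10 members with more than 1 probe set, those with a further set above the filter on most arrays changed the same way in it, as for Acat1, where the second set gave -1.10 against -0.85.

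In long-term muscle against control, 21 of the 32 members stood below 0, and the median share of the short-term difference that was absent was 97%, with 27 members at 90% or more. This share was not computed for other genes, so it does not set the members apart. For 74 further tested genes of fatty acid use, the median against control was -0.50 in short-term muscle and -0.007 in long-term muscle. With 4 arrays per group the precision was limited. The 95% intervals of 14 members lay within 0.5 of 0 on the log2 scale, while those of Ucp3 and Bdh1 ran from -0.92 to 0.93 and from -1.19 to 0.99, so sizeable differences in those genes could not be detected. Over all genes, limma called 0, with 217 at an unadjusted p under 0.05, of which 0 were members.

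By week, the means of all 32 genes were below the control mean at weeks 1, 2, 3 and 4. On single arrays the exceptions were Acadm, Acads and Pdk4, at 0.001, 0.012 and 0.073 above it on the second array of week 1, that of rat 13. The median member stood at -0.85 at week 1, -1.28 at week 2, -0.96 at week 3 and -1.26 at week 4. It then stood at -0.13 at week 6, where 29 of the 32 were still below the control mean, and at 0.06 and 0.02 at weeks 16 and 22. Weeks 3, 4, 16 and 22 had 1 array each, so these values have no replicate. Against control, 29 of the 32 were lower at week 1, where 28.7% of all genes were called lower, and 32 at week 2, where 37.6% were. Under all 6 scalings these counts were 21 at week 1, against 9.16% of all genes, and 30 at week 2, against 14.5%. The exceptions at week 1 were Acads (adjusted p = 0.166), Pdk4 (adjusted p = 0.0775) and Bdh1 (adjusted p = 0.116). Without the array of rat 12, 20 members were called lower at week 1, in a fit that called 1706 genes in either direction against 3863 with all arrays. Without that of rat 13, 28 members were, with 2380 genes called. At week 6, 0 members were called by limma, where 0% of all genes were called and 485 genes had an unadjusted p under 0.05, 1 of them a member.

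Acot2 was that member, at -1.06 (adjusted p = 0.991), and without the control array of rat 61 it was called lower, at -1.31 with an adjusted p of 0.0254. Within the short-term arrays the lowest value fell on the second array of week 2 for 19 genes and on the week-4 array for 9. The lowest weekly mean was that of week 2 for 15 genes and of week 4 for 14. Week 2 was compared with week 1 directly after these values had been seen. The median member stood at -0.41 relative to the median gene and 29 of the 32 were below 0, but limma called 0 members lower, where 0.0542% of all genes were. The smallest adjusted p of a member was 0.0909 for Ech1. An unadjusted p under 0.05 by limma was found for 15 members and for 1441 of all 11065 genes tested. Without the array of rat 25, the first of week 2, the median was -0.63 and 11 members were called lower, but that fit called 840 genes in all against 8 with all arrays. Without that of rat 27, the second of week 2, the median was -0.17 and 0 members were called. Without that of rat 13 it was -0.24, with 0 members and 0 genes called. In these fits the remaining array of the week is assumed to vary like the other groups.

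**Figure D3:**
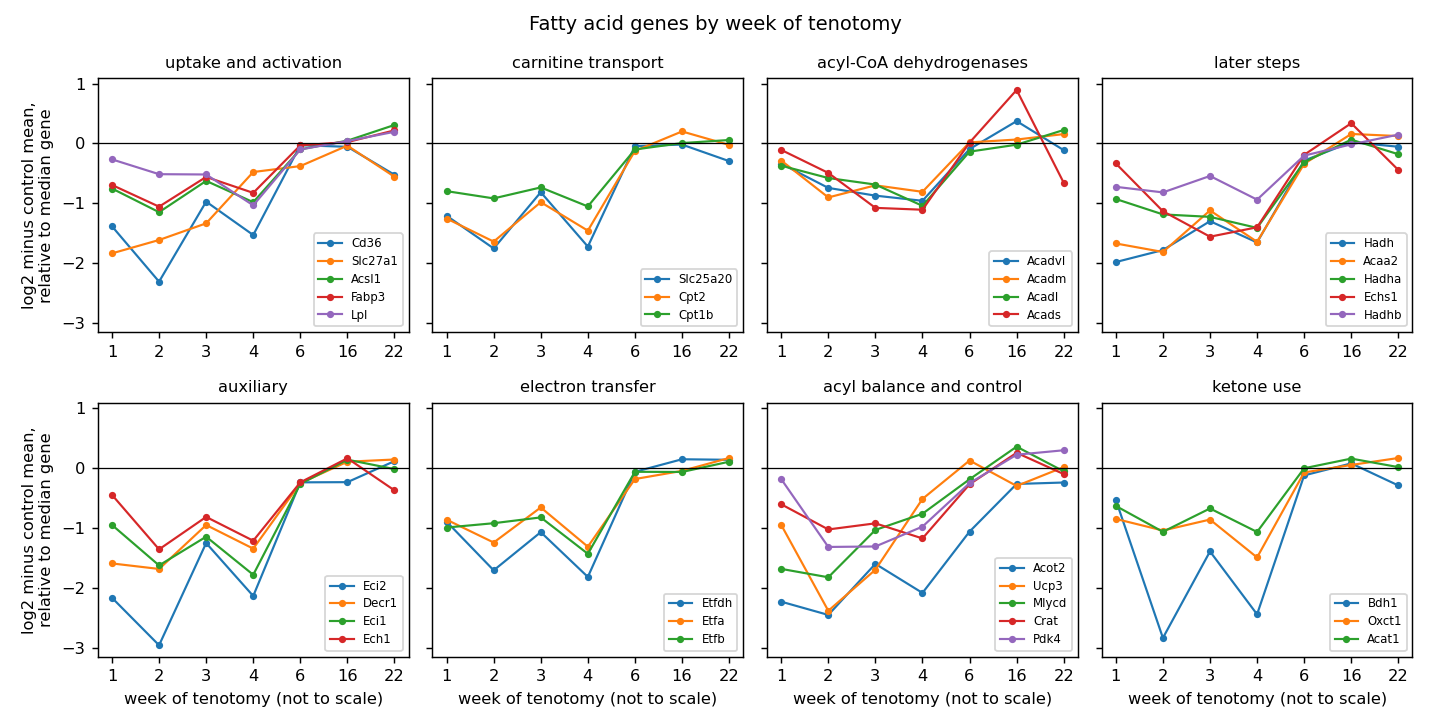
Relative log2 difference from the control mean by week of tenotomy for the members, drawn as 1 line per gene within panels for the 8 roles, with points as means over the arrays of a week (2 at weeks 1, 2 and 6, otherwise 1), and weeks evenly spaced, not to scale. Lines lie below 0 from week 1 to week 4 and mostly near 0 from week 6 on, with Acot2 at -1.06 at week 6 and Acads at 0.89 and -0.66 on the single arrays of weeks 16 and 22.

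Rats 61 and 62 allow the 6-week muscle to be set against the opposite leg of the same animal. In rat 61, 22 of the 32 members were lower in the tenotomized leg, with a median of -0.05 relative to the median gene, from -0.82 for Bdh1 to 0.20 for Fabp3. In rat 62, 28 were lower, with a median of -0.10, from -0.99 for Acot2 to 0.65 for Acads. Lower values in both rats were seen for 19 genes. There is 1 muscle per leg, so these values have no error of their own. The tenotomized leg was the right one in both rats, so leg side goes with tenotomy here too.

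The members also varied together from array to array. Over all 14 arrays the correlation between the log2 signals of 2 members had a median of 0.92 over 496 pairs, from 0.49 to 0.99. With each group's mean removed the median was 0.55, from -0.51 to 0.99. These values are descriptions, since pairs share arrays, their scaling and, for whole muscle, the mix of cells. They were not computed for other genes, so they do not set the members apart.

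Markers of other cells and control probe signals differed between the same groups. The summed signal of the macrophage markers was 1850 to 3506 in controls, 4695 to 10176 in short-term muscle and 1791 to 3635 in long-term muscle, with 11 of 13 genes higher in short-term muscle, where 12.3% of all genes were called higher. For fibroblast and matrix markers it was 10283 to 17115, 31089 to 61443 and 4942 to 17613, with 8 of 9 higher. The 16 muscle fibre genes had a median change of 0.06 in short-term muscle. Of these, 5 were lower and 0 higher, where 39.6% and 12.3% of all genes were. Only 1 was lower under all 6 scalings, against 16.8% of all genes: Casq2, a calcium store protein, at -0.88. Group means of the 16 fibre genes ran from 1834 for Casq2 in short-term muscle to 11390 for Myh7 in long-term muscle. The highest signal on the arrays was 12542. The members' median minus the fibre genes' median, each as a log2 difference from the control means, was between -1.76 and -0.71 on the short-term arrays. On control arrays this difference was between -0.07 and 0.10, and on long-term arrays between -0.23 and 0.06. Poly-A spike signals were 137 to 468 in short-term muscle against 97.4 to 114 in the controls, and 3′ to 5′ ratios of actin were 1.97 to 3.87 against 1.47 to 2.37. Those of GAPDH went the other way, with 1.16 to 1.61 in short-term muscle against 1.38 to 2.78. The part of these measures in the members' falls was not tested.

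**Figure D4:**
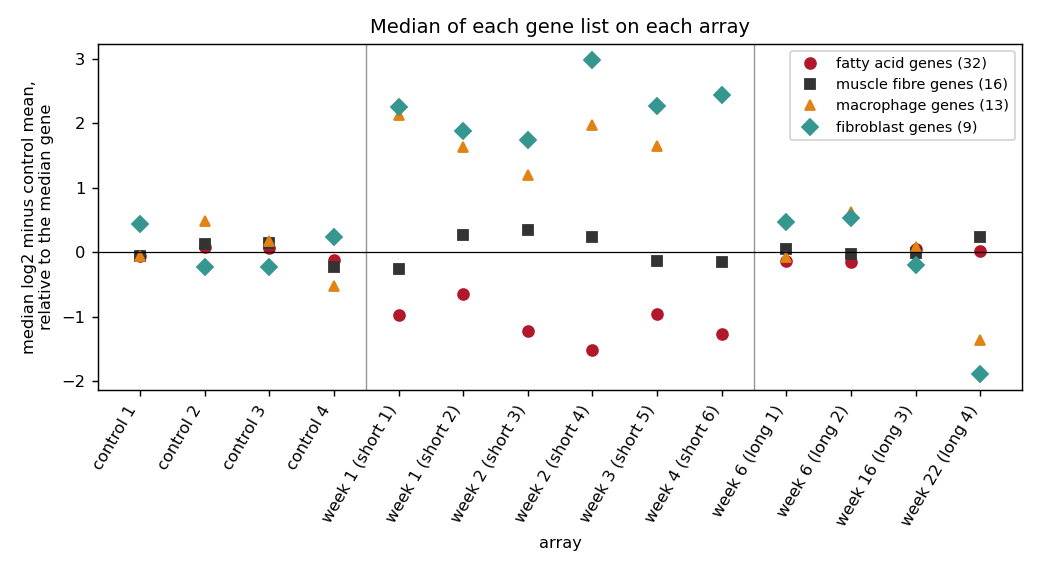
Median log2 difference from the control mean, relative to the median gene, on each of the 14 arrays for the 32 members and for the muscle fibre, macrophage and fibroblast gene lists. The members' medians run from -1.52 to -0.65 on the short-term arrays, while those of the fibre genes run from -0.26 to 0.35 there.

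Further genes of fatty acid use, drawn from lists of the pathway, did not all move one way. Of 74 tested genes outside the 32, 47 were lower and 5 higher in short-term muscle, where 39.6% and 12.3% of all genes were. The median of the 74 was -0.50, and 28 were lower under all 6 scalings, against 16.8% of all genes. Long-term muscle against control gave 0 calls in these lists. Among relatives of the uptake genes, 4 of 11 fell, 3 under all 6 scalings, led by Acsl6, an acyl-CoA synthetase, at -1.80, and Slc22a5, the carnitine importer of the cell membrane, at -0.96. Acsl5, another synthetase, was higher at 0.99, though not under all 6 scalings. Of 15 further mitochondrial oxidation genes 12 fell, 8 under all 6 scalings, among them Hsd17b10, a hydroxyacyl dehydrogenase, with a change of -0.85. Of 8 peroxisomal genes 6 fell, but only 2 under all 6 scalings, Abcd2, a fatty acyl-CoA transporter, at -1.43, and Hsd17b4, the bifunctional oxidation enzyme, at -0.54.

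Lipid droplet and lipolysis genes fell in 7 of 9 cases, 5 under all 6 scalings, against 39.6% and 16.8% of all genes. Plin4 and Plin5, which coat lipid droplets, changed by -2.28 and -1.82, G0s2, an inhibitor of adipose triglyceride lipase, by -2.26, and Pnpla2, that lipase, by -1.03. In long-term against short-term muscle the same genes were higher, Plin4 by 2.07 and G0s2 by 2.48. The kinases of pyruvate dehydrogenase went different ways in short-term muscle. Pdk2 was lower, as was the member Pdk4, with a change of -1.23, Pdk1 had a change of -0.39, and Pdk3 rose by 2.31 (SE 0.36).

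Regulators and lipid synthesis genes formed a mixed list of 21. Of these, 11 were lower, 5 of them under all 6 scalings, and 3 higher. Over all genes tested these shares were 39.6%, 16.8% and 12.3%. The 5 lower under all 6 scalings included the coactivator Ppargc1a, at -1.98, and Rxrg, a partner of the PPARs, at -1.46. The others were Lpin1, a coactivator and phosphatidate phosphatase, at -1.07, and the estrogen-related receptors Esrra and Esrrb, at -1.05 and -0.865. Ppara, which encodes PPAR alpha, was under the filter on dim signals and was not tested. The 3 genes that rose were Scd, the stearoyl-CoA desaturase, at 3.71, Foxo1, a transcription factor, at 2.24, and Fasn, the fatty acid synthase, at 2.08 (SE 0.32). Scd and Foxo1 had control means below the filter signal of 22.0, so their folds are uncertain. Among the hydrolases and ketone carriers, 4 of 5 were called lower, 3 under all 6 scalings, led by Acot13 at -1.67 and Slc16a1, the monocarboxylate carrier that also moves ketone bodies, at -1.55. Acot9, another thioesterase, was among those called lower, with a relative change of only -0.02.

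Because the 32 genes all fell in short-term muscle, their promoters were searched for the letters that the textbook regulators bind. RefSeq promoters on GRCr8, from 250 bases before to 50 after the start, were found for 26 of the 32. Missing were Acaa2, Acadl, Cpt1b, Decr1, Ech1 and Lpl. The repeat bound by PPAR with its partner, which is AGGTCA, any 1 base and AGGTCA again, was counted on both strands with up to 2 mismatches in its fixed letters. It matched in 6 of the 26 (23.1%), against 3.77% of all 33469 promoters. A member counted where any promoter under its symbol matched, while the share here and below counts every promoter, of genes tested or not. The shares are therefore not alike in kind, and their difference was not tested. The shorter AAGGTCA matched exactly in 1, Hadhb (3.85%), against 4.61%, and TCAAGGTCA, the element of the estrogen-related receptors, which contains the former, in 0 of 26, against 0.433%. AAGGTCA can overlap a match of the repeat. The 4 matches below are shown as examples from genes of different roles, in the direction of the gene, with the matching letters in capitals.
Acadvl: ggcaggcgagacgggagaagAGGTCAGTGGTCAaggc
Crat: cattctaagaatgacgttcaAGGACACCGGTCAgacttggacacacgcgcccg
Echs1: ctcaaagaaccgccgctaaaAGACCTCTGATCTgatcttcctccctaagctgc
Ucp3: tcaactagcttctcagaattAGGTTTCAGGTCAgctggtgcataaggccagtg
In GRCr8 the windows are chr10:55236706-55236742 for Acadvl, chr3:34087290-34087342 for Crat, chr1:204333629-204333681 for Echs1 and chr1:164227833-164227885 for Ucp3, on the plus strand for Ucp3 and on the minus strand for the other genes. The capitals start at positions -17, -223, -155 and -57 from the gene's start in that order. Acadvl has 1 mismatch and the others 2, and in Echs1 the repeat reads on the opposite strand. The remaining matches were in Etfa and Slc25a20. A match describes letters in a window, and no binding was measured. In short-term muscle these 4 genes changed by -0.66, -0.88, -0.97 and -1.47, within the range of the members without a match.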

How the data were processed

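The deposited values are MAS5 probe set signals, a linear intensity per array, per the submitters' processing notes. Its scaling target and version and any array batches are not given in the sources used here. Arrays have no count depth, so their number limits the precision: the array medians ran from 29.8 to 49.3. No pair of arrays was identical, and pairs correlated between 0.852 and 0.941.

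Each deposited intensity was taken to log2, each array was shifted to a common median, and values under the pooled 25th percentile (9.69) were raised to it. The probe set with the highest mean stood for a gene, and 57 manufacturer's control probe sets were left out. Probe sets with 1 symbol numbered 20826, with several 436 and with none 9780. Of 14217 genes, the 11065 above the pooled 40th percentile (22.0) on at least 4 arrays were tested. limma 3.58.1 (R 4.3.3) compared the groups in 1 fit of all 14 arrays with an intensity trend, and weeks 1, 2 and 6 in a second fit with a mean per week. On data simulated for short-term muscle against control over 11065 genes, 7.5%, 61.2% and 98.5% of changes of 0.5, 1 and 2 on the log2 scale were recovered. That simulation changed only 67, 67 and 66 genes of these sizes, where 5745 genes were called in the data. The adjusted threshold depends on that number, so these shares hold for the simulated setting and not for the data.

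Replicates are muscles of different rats within a group. Rats 61 and 62 each gave a control and a 6-week array. Those pairs come from the labels, and the deviations of the arrays from their group means correlated at 0.412 and 0.21 within these rats. The alternatives were other scalings, floors, filters and probe set rules, the rat as a block, a fit of rats 61 and 62 alone, and each array left out. Signals are printed for the members with the largest 2 changes in each role, on each control and long-term array and as the lowest, median and highest of the short-term arrays. Pdk4, which is not among these, is printed on every array in addition, outside this rule. The members, the other gene lists and this rule were chosen with earlier results of these data known, so they lend no independent support.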

Additional observations from a re-analysis of the deposited data

Results flagged for a closer look

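In 96 combinations of gene and group, 6 held an array apart from the others of its group by Dixon's test at the 95% level, which chance gives in about 1 of 20. Cd36 read 309 on the second array of week 2, where the nearest short-term array read 843, and 2640 on the week-22 array, where the nearest long-term array read 3100. Acaa2 read 2830 on the control array of rat 61, with the nearest control at 4280. Acat1, the last thiolase of ketone use, read 4090 on the 6-week array of rat 62, with the nearest long-term array at 5350. On the week-22 array Eci2 read 1740 against a nearest value of 1190, and Etfb read 5910 against 4590. The week-22 array thus held 3 of the 6 values.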

How the results depend on the processing

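Every setting tried kept the 32 members lower in short-term than in control muscle, apart from Acads under 4 of the scalings, and no direction reversed. Under quantile scaling the members' median was -0.797 in short-term muscle, 0.72 in long-term against short-term muscle, -0.659 at week 1 and -1.035 at week 2. Counts of genes called moved more. On the deposited scale 3987 genes were called in long-term against short-term muscle (6027 otherwise) and 2327 at week 1 (3863 otherwise). For week 1, quantile scaling gave 2336 and the trimmed mean 2380. Without the filter, 1 gene was called in long-term muscle against control, 4 at week 6 and 15 for week 2 against week 1. With the rat as a replicate block in the fit of all arrays, no member's call changed in the comparisons of groups. A separate fit used only the arrays of rats 61 and 62, paired by rat, and called 12 genes at week 6. For week 2 against week 1, 8 genes were called, but 0 with the 75th percentile, the common median of tested genes, no floor or no intensity trend, 1 with the trimmed mean and 2 with the mean of probe sets. There 2 members (Ech1 and Pdk4) were lower on the deposited scale and 1 (Ech1) under quantile scaling.

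With each array left out in turn, 32 members were called in both comparisons with short-term muscle and 0 in long-term muscle against control. The short-term median ran from -1.12 to -0.942, with 4911 to 5841 genes called. For long-term against short-term muscle it ran from 0.911 to 1.042, with 4854 to 6147 genes. Against control the long-term median ran from -0.096 to 0.003. Week 1 gave 20 to 28 members, medians of -0.966 to -0.65 and 1706 to 3782 genes, week 2 gave 30 to 32 members, medians of -1.514 to -1.217 and 3319 to 5183 genes, and week 6 gave 0 to 1 member, medians of -0.171 to -0.122 and 0 to 37 genes. Week 2 against week 1 gave 0 to 11 members, medians of -0.634 to -0.165 and 0 to 840 genes. Fits that leave a week with 1 array assume that it varies like the others.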
